A study of Mus musculus with 6 samples.

Results

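The genes described here encode the heat shock proteins of the HSP70, HSP110, HSP90, HSP60, HSP10 and small heat shock protein families, their J-domain partners (DnaJ proteins of classes A, B and C) and the BAG proteins. They were taken by gene symbol from the protein-coding genes of the authors' comparison table, which gave 76 genes of the 52550 in the deposited count table. Their RNA was measured by RNA-seq in hippocampus of male C57BL/6J mice after stereotaxic injection of an adeno-associated virus (AAV) into CA1 on both sides at 8 weeks of age. The Control group received AAV-control and the TAF15 OE group AAV-CaMKIIα-TAF15, both are labelled 31 days, and each group has 3 libraries from 1 mouse each. TAF15 is an RNA- and DNA-binding protein of the FET family, and the CaMKIIα promoter is commonly used to drive expression in excitatory neurons. What AAV-control carried is not given in the sources used here. Whole hippocampus was extracted, so the libraries hold RNA of infected and uninfected cells and of every cell type of the tissue.

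Molecular chaperones keep other proteins folded, soluble and able to assemble. HSP70 proteins bind and release exposed hydrophobic stretches in an ATP-driven cycle, J-domain proteins deliver clients and stimulate that ATP use, and BAG proteins act as nucleotide exchange factors that make HSP70 let go. HSP90 matures signalling proteins, HSP60 with HSP10 folds proteins inside mitochondria, and small heat shock proteins hold unfolding proteins without using ATP. Heat shock factors induce a subset of these genes when unfolded protein accumulates in the cytosol, through heat shock elements, inverted repeats of the unit GAA. Unfolded protein in the endoplasmic reticulum (ER) induces a separate subset through the ER stress element.

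The RefSeq table used here held promoter windows for 62 of the 76 genes, 80 windows in all, on GRCm38.p6. The 250 bases before the start site were searched on both strands. A heat shock element of 3 units, GAA and TTC in turn with any 2 bases between units and either unit first, was present in 4 of the 80 windows (5.0%), against 153 of 32851 windows of the same length from all genes (0.466%). These were windows of Dnajb6, Hspd1 and Hspe1. The 2 windows of Dnajb6 overlap and hold the same site. Those of Hspd1 and Hspe1 hold the same bases on opposite strands. The shares therefore count windows, which can overlap, and not separate elements. The shorter form of 2 units, GAANNTTC or TTCNNGAA, which the longer one contains, was present in 16 of 80 windows (20.0%) and in 12.8% of all windows. The ER stress element, CCAAT, any 9 bases and CCACG on either strand, was present in 3 of 80 windows (3.75%) and in 0.113% of all windows. A match is a description of these letters and not a measured binding site. The sequences below, on the strand of the gene, are shown because their genes are named in the comparisons that follow. Hspb6 and Dnajb6 are not among the genes grouped below as targets of heat shock factors. Capitals mark the motif. The Hsp90b1 window holds another ER stress element on the other strand, at -107 to -89 from the start site, which is not printed. The Hspb6 stretch lies before a RefSeq start site but inside the gene span given for Hspb6 below. Those of Hspe1, Dnajb6 and Hspa5 lie in annotated exons.
Hspe1, chr1:55088053-55088082, plus strand, 2 overlapping matches of the longer element in the window shared head to head with Hspd1: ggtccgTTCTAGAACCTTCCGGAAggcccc
Dnajb6, chr5:29735844-29735872, plus strand: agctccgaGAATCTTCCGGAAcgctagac
Hspa1a, chr17:34972229-34972284, minus strand: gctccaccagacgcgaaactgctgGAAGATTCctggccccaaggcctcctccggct
Hspa1b, chr17:34959311-34959366, minus strand: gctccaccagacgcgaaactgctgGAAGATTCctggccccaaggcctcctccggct
Hspb1, chr5:135887778-135887853, plus strand: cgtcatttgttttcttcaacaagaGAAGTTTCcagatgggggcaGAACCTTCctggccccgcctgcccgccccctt
Hspb6, chr7:30553157-30553212, plus strand: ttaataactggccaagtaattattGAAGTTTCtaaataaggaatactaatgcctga
Dnajc3, chr14:118937803-118937869, plus strand, ER stress element: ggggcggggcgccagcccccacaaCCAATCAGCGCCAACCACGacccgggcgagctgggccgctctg
Hspa5, chr2:34772020-34772048, plus strand, ER stress element: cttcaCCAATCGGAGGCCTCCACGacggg
Hsp90b1, chr10:86705614-86705680, minus strand, ER stress element: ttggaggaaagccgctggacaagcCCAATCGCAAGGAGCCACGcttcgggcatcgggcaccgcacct
The stretches printed for Hspa1a and Hspa1b, neighbouring genes for the inducible HSP70, are the same, and 247 of their 250 upstream bases are identical.

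The libraries held between 14965464 and 16067000 counts. Taf15, the overexpressed gene, had 61.7, 63.5 and 53.0 CPM (counts relative to the TMM-scaled library total) in Control 1 to 3 and 249, 241 and 272 CPM in TAF15 OE 1 to 3. It was 4.27-fold higher in TAF15 OE, and the 2 groups lie far apart (SE of the log2 fold change 0.086, adjusted p = 4.97e-07). Marker genes of cell types differed widely between the groups, and with tissue RNA alone, fewer cells of a type and less RNA per cell cannot be told apart. All 7 excitatory and all 10 pan-neuron markers were detected in every library, and 5 and 7 of them fell. Their summed levels were 8746 to 10570 and 7006 to 7525 CPM in Control, and 5922 to 7406 and 5858 to 6274 CPM in TAF15 OE. Of interneuron markers 2 of 8 fell. Among glial markers 5 of 8 for astrocytes, 6 of 7 for reactive astrocytes, 9 of 10 for microglia and 6 of 7 for oligodendrocytes rose. In addition 6 of 7 tested T and plasma cell, 3 of 8 endothelial, 4 of 7 tested pericyte and smooth muscle and 1 of 7 ependymal markers rose. Choroid plexus markers summed to 145 to 4647 CPM in Control and to 1524 to 4967 CPM in TAF15 OE. The lowest sums were those of Control 1 and TAF15 OE 1. None of the 7 markers passed the test, either in edgeR, at an unadjusted p below 0.05, or in DESeq2.

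Most chaperone genes passed no test. Of the 76 genes, 69 had enough counts to be tested, and 8 of them (11.6%) differed between the groups in edgeR's quasi-likelihood test at an adjusted p below 0.05. Of all 16758 tested genes, 15.3% did. The 3 that rose were Hspb6, Hspb8 and Dnajc3 (4.35%, against 9.32% of all tested genes). The 5 that fell were Dnajb5, Dnaja4, Dnajc16, Dnajc5 and Hspa12a (7.25%, against 5.95%). The log2 fold changes ran from -0.91 to 1.16 with a median of -0.083 (-0.048 without Control 1), and 42 of 69 were negative; over all tested genes the median was 0.026. With libraries scaled by total counts, 4 rose (5.8%, against 11% of all tested genes) and 3 fell (4.35%, against 4.27%). With that scaling 72.0% of all calls were higher, against 61.0% with TMM. In 23 of 69 genes (33.3%) the groups did not overlap, 7 with TAF15 OE above and 16 below, against 34.6% of all tested genes. The share of genes without overlap lies near that of all genes. Only Hspb6 had a log2 fold change of 1 or more in size, and the authors' deposited table likewise marks Hspb6 alone of the 76 as significant (log2 fold change 1.13 there). The 558 genes marked there all had a log2 fold change of at least 1.001 in size and an adjusted p below 0.05. Without the size limit, that table gives 16 of these 76 genes an adjusted p below 0.05, 3 higher and 13 lower. DESeq2, run here on the same counts, gave the same 3 and 13 (4.35% and 18.8%, against 8.51% and 7.53% of all genes). Its adjusted p was also the same for Dnaja1 (0.0174) and Hspa8 (0.00748). That table and the DESeq2 values below are therefore not separate results.

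**Figure D1:**
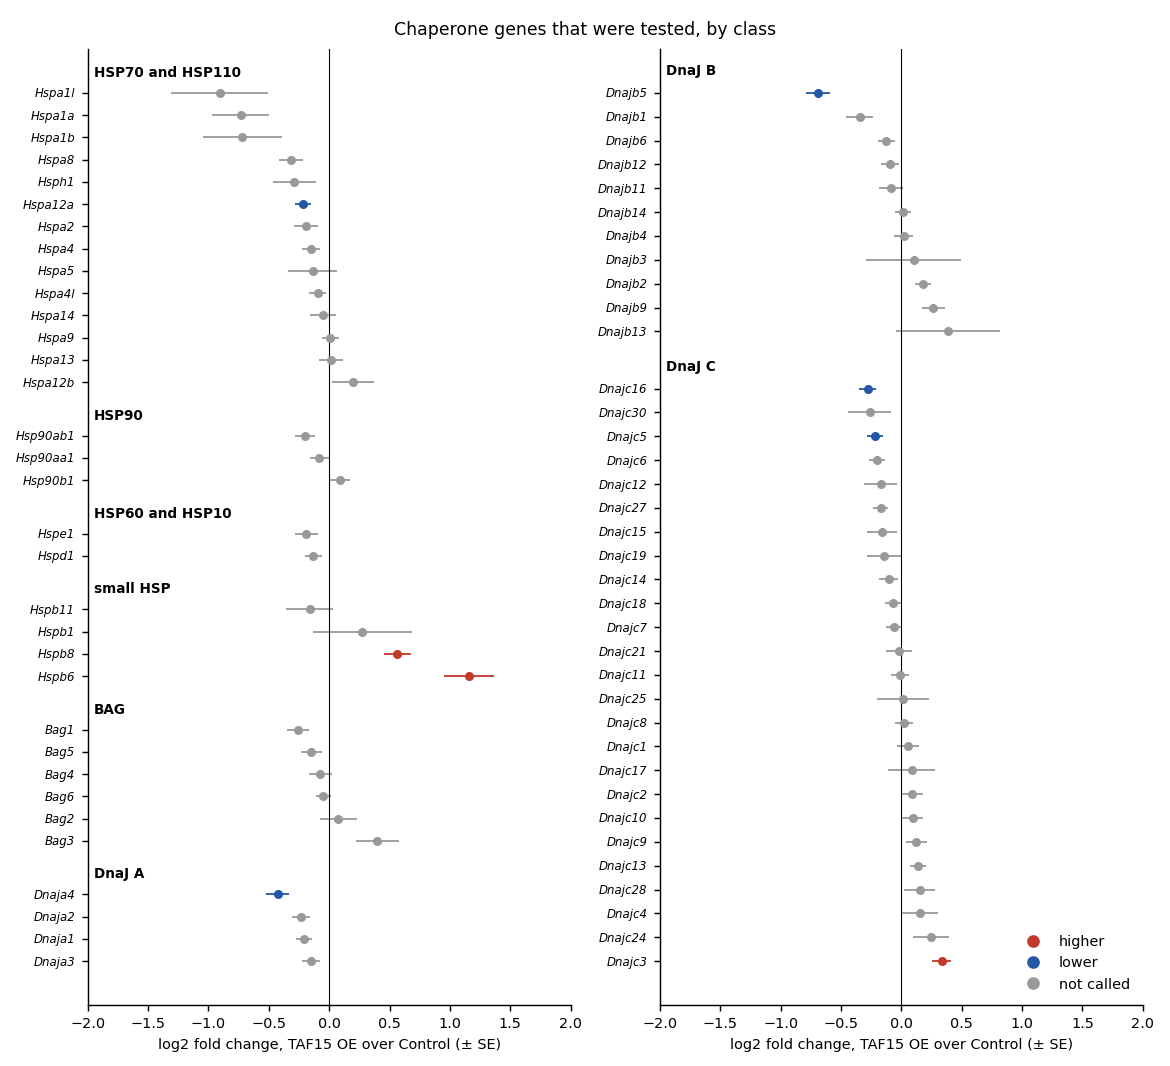
Log2 fold change of TAF15 OE over Control with its standard error (horizontal axis) for each of the 69 tested chaperone genes, grouped by class. Red marks the 3 genes called higher, blue the 5 called lower and grey those not called; the largest change is that of Hspb6 (1.16), and the low-count Hspa1l has the lowest value (-0.91).

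The RNA of these genes together made up 1.06, 1.06 and 1.03% of the counts in Control 1 to 3. In TAF15 OE 1 to 3 the share was 1.03, 0.921 and 0.949%. TAF15 OE 1 lay near the Control libraries and the other two TAF15 OE libraries below them. The sum is carried by a few genes. Per length, in FPKM (fragments per gene length and library total) averaged over the 6 libraries, Hsp90ab1 stood first with 595, then Hspa8 with 360 and Hsp90aa1 with 240. The next, the ER chaperone gene Hspa5, had 72.8 FPKM, Bag1 60.1 and Dnaja2 58.3. Among those called, Dnajc5 (53.6 FPKM) and Hspa12a (53.2 FPKM) were high in this order, Hspb8 had 14.1 FPKM and Hspb6 3.81 FPKM. The lowest tested gene was Hspa1l with 0.467 FPKM.

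**Figure D2:**
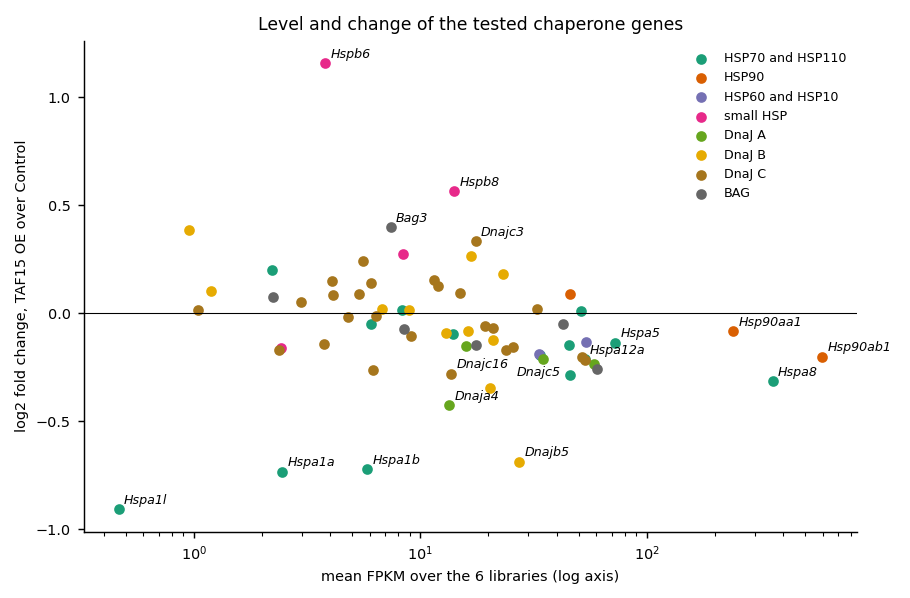
Log2 fold change of TAF15 OE over Control (vertical axis) against mean FPKM over the 6 libraries (horizontal log axis), 1 point for each tested chaperone gene, coloured by class. The most abundant genes, Hsp90ab1, Hspa8 and Hsp90aa1, had changes between -0.31 and -0.083, and the widest changes were those of genes at low or middle level.

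Of 8 small heat shock protein genes, 4 had enough counts for a test, and 2 rose and 0 fell. Of all tested genes 9.32% rose. The median log2 fold change of the 4 was 0.42. At an unadjusted p below 0.05 and in DESeq2 the same counts were found. The median was 0.14 without TAF15 OE 1, 0.23 without Control 1 and 0.062 without both of these libraries. Hspb6 encodes HSP20, a small heat shock protein abundant in muscle. It is at chromosome 7, 30552178 to 30555443, on the plus strand (ENSMUSG00000036854). Its level was 3.87, 5.64 and 6.66 CPM in Control 1 to 3 and 9.84, 12.6 and 13.7 CPM in TAF15 OE 1 to 3. Every TAF15 OE library was above every Control library, and the rise was 2.23-fold (5.39 ± 1.41 to 12.0 ± 1.99 CPM, SD, n = 3 each; log2 fold change 1.16, SE 0.21, adjusted p = 0.00476 by edgeR). The level rests on 57 to 226 counts a library.

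Hspb8, at chromosome 5, 116408491 to 116422864 on the minus strand (ENSMUSG00000041548), encodes the partner of BAG3 in selective autophagy of misfolded proteins. It had 18.9, 24.3 and 23.1 CPM in Control and 35.8, 30.9 and 31.6 CPM in TAF15 OE. The groups did not overlap, with a 1.48-fold rise (22.1 ± 2.83 to 32.7 ± 2.65 CPM, SD, n = 3 each; log2 fold change 0.56, SE 0.11, adjusted p = 0.00814 by edgeR). Both genes were called with each library left out in turn. Hspb1, which encodes HSP27 (HSP25 in the mouse), had 4.48, 10.1 and 8.86 CPM in Control and 14.5, 7.10 and 6.74 CPM in TAF15 OE. Its highest value was in TAF15 OE 1 and its lowest in Control 1, and the groups overlapped (log2 fold change 0.27, SE 0.41, adjusted p = 0.725). Without TAF15 OE 1 its log2 fold change was -0.20, and without Control 1 it was -0.0059. Hspb11, a subunit of the intraflagellar transport machinery despite its symbol, had a log2 change of -0.16 (SE 0.19, adjusted p = 0.634); it was named after its values were seen. Hspb2, Hspb3, Hspb7 and Hspb9 had too few counts for a test.

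Cryab, the alpha B crystallin that belongs to the same protein family, had 74.1, 93.6 and 87.3 CPM in Control and 147, 109 and 98.0 CPM in TAF15 OE. All 3 TAF15 OE libraries were above Control, but the difference missed the threshold (log2 fold change 0.47, SE 0.16, adjusted p = 0.105); it passed in DESeq2, and it too was named after its values were seen. Summed markers of vessel walls and glia were also higher in TAF15 OE than in Control. Pericyte and smooth muscle markers summed to 128 to 155 CPM in Control and 192 to 227 CPM in TAF15 OE. Of these markers Rgs5 alone had 82.7 to 98.1 CPM in Control and 105 to 150 CPM in TAF15 OE. Acta2 and Kcnj8 overlapped between the groups, and Tagln had no counts in 4 of the 6 libraries. Astrocyte markers summed to 4378 to 5514 and 6043 to 6715 CPM, and oligodendrocyte markers to 5000 to 5383 and 6157 to 7987 CPM. The sums were 707 to 846 and 3017 to 3354 CPM for reactive astrocyte markers, and 542 to 589 and 1092 to 1705 CPM for microglia markers. Their part in the rise of Hspb6 and Hspb8 was not tested.

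**Figure D3:**
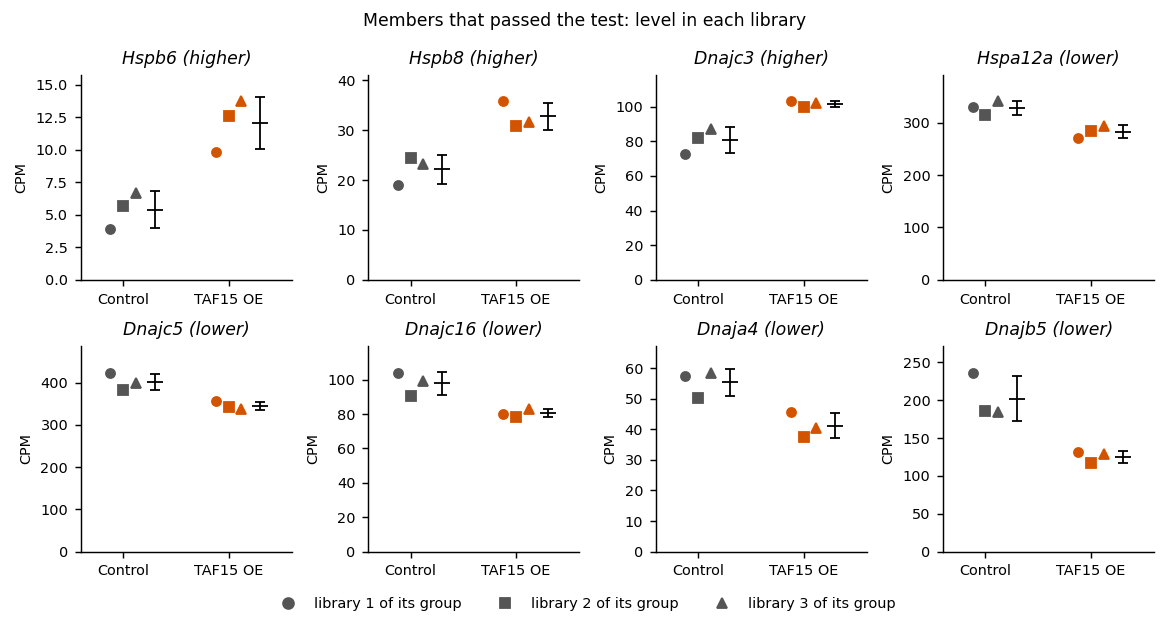
Level in CPM (vertical axis, from 0) of the 8 chaperone genes that passed the test, 1 point for each library of Control (grey) and TAF15 OE (orange), with the mean and SD of each group beside the points. In all 8 the groups do not overlap; Hspb6 differed by 2.23-fold, Hspa12a and Dnajc5 by 1.16-fold.

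J-domain proteins were tested by class. Class A, the closest relatives of bacterial DnaJ, had 4 tested genes, of which 1 fell and 0 rose, with a median log2 fold change of -0.22; in all 4 every TAF15 OE library was below every Control library, where 34.6% of all tested genes had no overlap in either direction. Dnaja4 (chromosome 9, 54698873 to 54716315, plus strand, ENSMUSG00000032285), a cytosolic HSP70 partner, had 57.5, 50.2 and 58.4 CPM in Control and 45.6, 37.5 and 40.5 CPM in TAF15 OE. It was 1.34-fold lower (55.4 ± 4.51 to 41.2 ± 4.08 CPM, SD, n = 3 each; log2 fold change -0.43, SE 0.096, adjusted p = 0.0134). The call did not hold without Control 3 (adjusted p = 0.0550) and without TAF15 OE 2 (adjusted p = 0.0611). Of its exon bases 44.1% overlap Wdr61 on the other strand, and as no strand setting is given, reads of the pair cannot be told apart; Wdr61 itself had a log2 change of -0.025 (SE 0.11, adjusted p = 0.914), and 0.025 with total counts.

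Dnaja1, a major cytosolic J-protein, had 341, 317 and 317 CPM in Control and 292, 267 and 284 CPM in TAF15 OE, with no overlap (log2 fold change -0.21, SE 0.066, adjusted p = 0.0532). Dnaja2 had 197, 195 and 173 CPM in Control and 165, 162 and 154 CPM in TAF15 OE, again with no overlap (log2 fold change -0.23, SE 0.073, adjusted p = 0.0512). Neither passed in edgeR; both passed in DESeq2 (adjusted p = 0.0174 and 0.0203) and without TAF15 OE 1 (0.0305 and 0.0387), and Dnaja2 also without Control 3 (0.0396). Dnaja3, the mitochondrial member, had a log2 change of -0.15 (adjusted p = 0.183). Dnaja2 and Dnaja3 were named after their values were seen.

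In class B, 11 of 13 genes were tested, 1 fell and 0 rose, with a median log2 fold change of 0.013 (-0.065 to -0.0024 with single libraries left out); DESeq2 called 0 higher and 2 lower, and at an unadjusted p below 0.05 there were 2 each way. Dnajb5 (chromosome 4, 42949814 to 42959425, plus strand, ENSMUSG00000036052), a cytosolic J-protein related to Dnajb1, fell most of all tested chaperone genes that passed. It had 236, 186 and 185 CPM in Control and 131, 116 and 129 CPM in TAF15 OE, and the groups lie well apart. The level was 1.61-fold lower (202 ± 29.3 to 126 ± 7.92 CPM, SD, n = 3 each; log2 fold change -0.69, SE 0.099, adjusted p = 0.00211). Dnajb5 passed under all 17 other settings, including each library left out, with an adjusted p of at most 0.0417.

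Dnajb1, the stress-inducible HSP40 that activates HSP70, had 74.1, 62.6 and 83.4 CPM in Control and 52.3, 56.8 and 64.2 CPM in TAF15 OE. The groups overlapped between Control 2 and TAF15 OE 3 (log2 fold change -0.34, SE 0.11, adjusted p = 0.0636); it passed in DESeq2 (adjusted p = 0.0177), with DESeq2's size factors in edgeR (0.0472), without a filter (4.70e-04), without Control 2 (adjusted p = 0.0289) and without TAF15 OE 3 (adjusted p = 0.0406). Dnajb6, which holds back aggregation of polyglutamine proteins, had a log2 change of -0.13 (SE 0.070, adjusted p = 0.262). Dnajb2, a neuronal J-protein that hands clients to the proteasome, had 92.4, 91.1 and 95.2 CPM in Control and 105, 111 and 100.3 CPM in TAF15 OE. All its TAF15 OE libraries were above Control, and the difference missed the threshold (log2 fold change 0.18, SE 0.067, adjusted p = 0.0956).

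Class C holds J-proteins with little in common beyond the J domain. Of 26 genes 25 were tested, 1 rose and 2 fell, with a median log2 fold change of -0.015 (-0.047 to 0.0092 with single libraries left out). Dnajc5 (chromosome 2, 181520485 to 181555133, plus strand, ENSMUSG00000000826) encodes cysteine string protein, a chaperone of synaptic vesicles. It had 423, 384 and 399 CPM in Control and 356, 342 and 339 CPM in TAF15 OE, all below Control (402 ± 19.8 to 346 ± 9.47 CPM, SD, n = 3 each). The 1.16-fold difference barely passed (log2 fold change -0.22, SE 0.065, adjusted p = 0.0449) and failed with total counts (adjusted p = 0.0733). It failed with every library but TAF15 OE 1 left out in turn, where the adjusted p was 0.155 without Control 1, 0.0547 without Control 2 and 0.103 without Control 3, and 0.146 without TAF15 OE 2 and 0.111 without TAF15 OE 3.

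Dnajc6, or auxilin, which recruits HSP70 to strip clathrin from synaptic vesicles, had 337, 317 and 332 CPM in Control and 303, 272 and 281 CPM in TAF15 OE. It lay below Control in all 3 libraries without passing (log2 fold change -0.20, SE 0.067, adjusted p = 0.0624), and passed without TAF15 OE 1. Dnajc13, which works on endosomes, had 69.7, 67.1 and 70.6 CPM in Control and 74.5, 74.2 and 79.6 CPM in TAF15 OE. It lay above Control in all 3 libraries and also did not pass (log2 fold change 0.14, SE 0.068, adjusted p = 0.201). Dnajc16 (chromosome 4, 141760189 to 141790931, minus strand, ENSMUSG00000040697), a J-protein of the ER membrane, had 104, 90.7 and 99.2 CPM in Control and 80.3, 78.4 and 83.2 CPM in TAF15 OE. It was 1.21-fold lower, with no overlap (97.9 ± 6.72 to 80.6 ± 2.44 CPM, SD, n = 3 each; log2 fold change -0.28, SE 0.073, adjusted p = 0.0247). The Dnajc16 call was lost without Control 1 (adjusted p = 0.0887), without Control 3 (0.0748) and without TAF15 OE 2 (0.0863).

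Excitatory and pan-neuron markers fell together with Dnajb5, Dnaja4, Dnajc5 and Dnajc16. Slc17a7, the vesicular glutamate transporter of excitatory neurons, had a log2 fold change of -0.48, and Snap25, a synaptic SNARE protein, one of -0.28. The part of neuronal RNA in the fall of these J-protein genes was not tested.

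Of the HSP70 and HSP110 genes 1 of 14 passed the test, and it fell. In the HSP70 and HSP110 class 11 of 14 log2 fold changes were negative, the median was -0.17 (-0.27 without TAF15 OE 1), and 0 genes rose; DESeq2 called 4 lower and 0 higher. Hspa12a (chromosome 19, 58795751 to 58860984, minus strand, ENSMUSG00000025092), a distant member of the HSP70 family, had 330, 314 and 341 CPM in Control and 270, 284 and 294 CPM in TAF15 OE. The fall of 1.16-fold (328 ± 13.6 to 283 ± 11.9 CPM, SD, n = 3 each; log2 fold change -0.21, SE 0.066, adjusted p = 0.0485) lies at the threshold. It was lost with each of the 6 libraries left out, with an adjusted p of 0.119, 0.0572 and 0.150 without Control 1, 2 and 3, and of 0.0734, 0.117 and 0.0543 without TAF15 OE 1, 2 and 3. Hspa12a too fell beside the excitatory and pan-neuron markers, of which 5 of 7 and 7 of 10 fell, and their part in it was not tested. Its relative Hspa12b had a log2 change of 0.20 (SE 0.17, adjusted p = 0.492).

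Hspa8, the constitutive cytosolic HSC70, had 1806, 1710 and 1650 CPM in Control and 1616, 1226 and 1313 CPM in TAF15 OE. TAF15 OE 1 was just below the lowest Control library and the other two were far below it. The difference missed the threshold in edgeR (log2 fold change -0.31, SE 0.10, adjusted p = 0.0555) and passed in DESeq2 (adjusted p = 0.00748). Hsph1, the inducible HSP110, had 409, 348 and 348 CPM in Control and 388, 270 and 247 CPM in TAF15 OE, with TAF15 OE 1 inside the Control range (log2 fold change -0.29, SE 0.18, adjusted p = 0.352). Hspa2 had 94.2, 91.3 and 101 CPM in Control and 95.3, 71.7 and 83.5 CPM in TAF15 OE (log2 fold change -0.19, SE 0.097, adjusted p = 0.217). The HSP110 relatives Hspa4 and Hspa4l had log2 fold changes of -0.15 (adjusted p = 0.212) and -0.095 (adjusted p = 0.406). Hspa9, the HSP70 of mitochondria, had a log2 change of 0.0097 (SE 0.072, adjusted p = 0.949), whose sign turned with the scaling (-0.013 with DESeq2's size factors).

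Hspa1a and Hspa1b are near-identical, so counting could split their reads between them. Hspa1a had 8.22, 7.43 and 11.9 CPM in Control and 7.16, 4.08 and 5.28 CPM in TAF15 OE (log2 fold change -0.73, SE 0.24, adjusted p = 0.0636). Hspa1b had 19.1, 17.7 and 24.8 CPM in Control and 19.2, 9.01 and 9.17 CPM in TAF15 OE (log2 fold change -0.72, SE 0.33, adjusted p = 0.209). In both genes TAF15 OE 1 was the highest of its group, and for Hspa1b it lay inside the Control range. With the counts of both summed, the pair had 27.3, 25.1 and 36.7 CPM in Control and 26.3, 13.1 and 14.5 CPM in TAF15 OE, which gave 1.65-fold lower values without passing the test (log2 fold change -0.73, SE 0.31, adjusted p = 0.185). DESeq2 called Hspa1a and Hspa1b lower, each tested singly (adjusted p = 0.0308 and 0.0219). Hspa1l, named after its values were seen, lies beside them; its log2 change of -0.91 (SE 0.40, adjusted p = 0.158) comes from the lowest level of the tested genes, and 71.9% of its exon bases overlap the antisense gene Gm10501.

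HSP90 genes gave no call in edgeR for 3 genes, with 1 at an unadjusted p below 0.05 and 1 called lower by DESeq2. Both were Hsp90ab1, the constitutive cytosolic form, with 1916, 1969 and 1860 CPM in Control and 1829, 1540 and 1625 CPM in TAF15 OE. All TAF15 OE libraries were below Control (log2 fold change -0.20, SE 0.080, adjusted p = 0.118). Hsp90aa1, the inducible cytosolic form, had 1042, 971 and 908 CPM in Control and 980, 909 and 869 CPM in TAF15 OE, and the groups overlapped (log2 fold change -0.083, SE 0.078, adjusted p = 0.532). Hspd1 and Hspe1, the genes of HSP60 and HSP10 whose shared upstream window holds the longest heat shock element printed above, had no call, also none at an unadjusted p below 0.05 or in DESeq2. Hspd1 had 157, 154 and 139 CPM in Control and 141, 131 and 139 CPM in TAF15 OE (log2 fold change -0.13, SE 0.072, adjusted p = 0.250). Hspe1 had 52.6, 58.6 and 47.2 CPM in Control and 50.2, 45.5 and 43.2 CPM in TAF15 OE (log2 fold change -0.19, SE 0.096, adjusted p = 0.217). None of the 10 mitochondrial chaperone genes passed in edgeR, at an unadjusted p below 0.05 or in DESeq2, and their median log2 fold change was -0.14.

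None of the 6 BAG genes passed in edgeR or DESeq2, with 1 at an unadjusted p below 0.05. That was Bag1, a nucleotide exchange factor that links HSP70 to the proteasome, with 84.1, 89.9 and 91.7 CPM in Control and 82.6, 75.0 and 64.5 CPM in TAF15 OE. Its TAF15 OE libraries were all below Control (log2 fold change -0.26, SE 0.090, adjusted p = 0.0787). Bag3, which with HSPB8 sends clients to autophagy, had 13.9, 15.2 and 19.9 CPM in Control and 25.8, 16.8 and 22.0 CPM in TAF15 OE. The groups overlapped, with TAF15 OE 1 the highest library (log2 fold change 0.40, SE 0.18, adjusted p = 0.172). Bag2, Bag4, Bag5 and Bag6 had log2 fold changes of 0.075, -0.074, -0.15 and -0.050, with adjusted p from 0.297 for Bag5 to 0.798 for Bag2. Bag4 turned to 0.020 without Control 1.

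Grouped by what induces them, the 14 genes known as targets of heat shock factors included 1 that rose (Hspb8) and 0 that fell, with a median log2 fold change of -0.20 and 10 negative values. At an unadjusted p below 0.05 there were 1 higher and 5 lower, and DESeq2 called 1 higher and 6 lower. The share of all tested genes at that unadjusted threshold is not given here, so whether its counts are unusual cannot be said. Over all 69 tested chaperone genes DESeq2 called 3 higher (4.35%, against 8.51% of all genes) and 13 lower (18.8%, against 7.53%). One library stood apart in this group. TAF15 OE 1 had the highest level of its group in 13 of the 14 genes (92.9%), in 39 of the 69 tested chaperone genes (56.5%) and in 36.7% of all tested genes. Control 1 was the highest of its group in 6 of the 14, in 47.8% of the 69 and in 36.1% of all. The heat-shock-factor targets also spread more within groups than the other 55 tested chaperone genes, with a median coefficient of variation of 10.2% in Control and 9.63% in TAF15 OE, against 5.96% and 6.31%.

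Left out of the fit, TAF15 OE 1 changed the count of falling chaperone genes from 5 to 15, which was 21.7% of the 69, against 7.06% of all 17109 genes then tested. This alternative was planned for every library, and no other left-out library gave more than 4. TAF15 OE 1 was the highest of its group in 39 of the 69 genes. Leaving it out lowers the TAF15 OE mean of those genes by construction, so the added calls are no separate support for a fall. The 3 rising genes were the same Hspb6, Hspb8 and Dnajc3 (4.35%, against 7.56%). Among the heat-shock-factor targets 6 then fell and 1 rose. The 15 held Dnajb5, Dnaja4, Dnajc16 and Dnajc5 again, but not Hspa12a, and added Dnaja1, Dnaja2, Dnajc6, Hspa2, Hspa5 and the following. Hspa1b then had a log2 change of -1.20 (adjusted p = 6.38e-04), Hspa1a one of -0.99 (adjusted p = 0.0155) and Hspa8 one of -0.46 (adjusted p = 0.00371). Hsph1 had -0.54 (adjusted p = 0.00230), Hsp90ab1 -0.30 (adjusted p = 0.0280) and Bag1 -0.37 (adjusted p = 0.0167). With Control 1 left out as well, 11 genes fell (15.9%, against 5.99% of all genes) and 2 rose, Hspb6 and Hspb8 (2.9%, against 7.05%). The fit without a library has 2 mice in 1 group, and what sets TAF15 OE 1 apart was not tested.

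**Figure D4:**
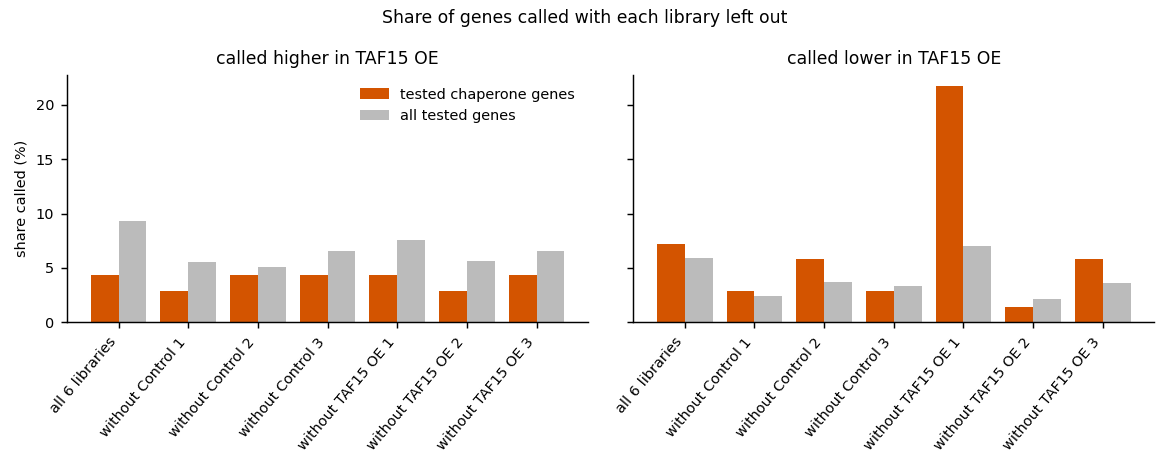
Share of genes called (vertical axis, percent) higher (left) and lower (right) in TAF15 OE with all 6 libraries and with each left out, for the 69 tested chaperone genes (orange) and for all tested genes (grey). Without TAF15 OE 1 the share of chaperone genes called lower is 21.7%, against 7.06% of all genes. With all libraries it is 7.25% against 5.95%. TAF15 OE 1 is the highest of its group in 39 of the 69 genes, so leaving it out lowers their TAF15 OE mean by construction.

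ER chaperones had 1 gene that rose and 1 that fell among 12, and a median log2 fold change of 0.015. Dnajc3 (chromosome 14, 118937932 to 118981702, plus strand, ENSMUSG00000022136) encodes P58IPK, an ER co-chaperone and inhibitor of the stress kinase PERK. It had 72.5, 81.9 and 87.3 CPM in Control and 103, 99.8 and 102 CPM in TAF15 OE, which lie close together and above Control. It was 1.26-fold higher (80.6 ± 7.53 to 102 ± 1.65 CPM, SD, n = 3 each; log2 fold change 0.33, SE 0.078, adjusted p = 0.0158). The call did not hold without Control 1 (adjusted p = 0.0575) and without TAF15 OE 2 (adjusted p = 0.0612). The one that fell was Dnajc16, described above.

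The other two genes with an ER stress element did not pass. Hspa5, or BiP, the HSP70 of the ER, had 301, 360 and 309 CPM in Control and 386, 230 and 266 CPM in TAF15 OE. TAF15 OE 1 was the highest of all 6 libraries and the other two were the lowest (log2 fold change -0.14, SE 0.20, adjusted p = 0.722; -0.41, adjusted p = 0.0136, without TAF15 OE 1). Hsp90b1, or GRP94, had 182, 187 and 169 CPM in Control and 211, 172 and 189 CPM in TAF15 OE (log2 fold change 0.090, SE 0.082, adjusted p = 0.517; -0.014 without TAF15 OE 1). Dnajb9, or ERdj4, a co-chaperone of BiP, had 39.2, 40.9 and 36.6 CPM in Control and 43.1, 44.4 and 52.7 CPM in TAF15 OE, all above Control (log2 fold change 0.27, SE 0.096, adjusted p = 0.0893).

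**Figure D5:**
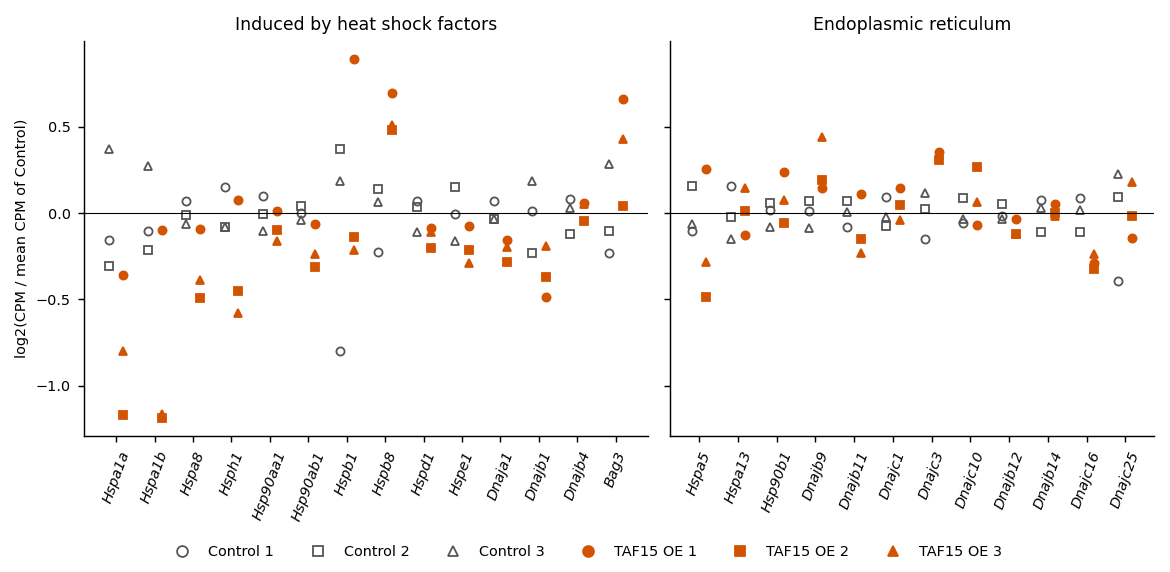
Log2 of CPM over the mean CPM of Control (vertical axis) in each library, for 14 heat-shock-factor targets (left) and 12 ER chaperone genes (right), with open grey symbols for Control and filled orange ones for TAF15 OE. TAF15 OE 1 (circles) is the highest of its group in 13 of the 14 targets, and in Hspa1b and Hspa8 it lies above the other two TAF15 OE libraries.

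The genes with a promoter motif were read against the 15.3% of all tested genes that passed. Of 13 tested genes with the shorter heat shock element, 1 rose (Hspb6) and 1 fell (Dnaja4), with a median log2 fold change of -0.17. The 3 with the longer element had values from -0.19 to -0.13 and 0 calls, in edgeR or, for Hspd1, Hspe1 and Dnajb6, in DESeq2. Of 3 with the ER stress element, 1 rose (Dnajc3).

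Partner genes that the symbol rule leaves out were read against the same 15.3% of all tested genes. None of the 4 heat shock factor genes passed in edgeR, at an unadjusted p below 0.05 or in DESeq2; Hsf1, the main inducer of the heat shock response, had a log2 change of -0.093 (SE 0.099, adjusted p = 0.588) and was named after its values were seen. Of 19 tested genes listed as HSP90 co-chaperones 1 rose, with a median of -0.062. It was Fnip1, an inhibitor of HSP90's ATP use (log2 fold change 0.25, SE 0.068, adjusted p = 0.0287). The 19 include Trap1, which is itself a mitochondrial HSP90 and was not called. Of 13 HSP70 partners 2 fell, with a median of -0.14. They were Hspbp1, a nucleotide exchange factor (log2 fold change -0.23, SE 0.071, adjusted p = 0.0471), and Sgtb, a neuronal co-chaperone (log2 fold change -0.37, SE 0.087, adjusted p = 0.0174). The chaperonin TRiC and prefoldin gave 0 calls of 14 in edgeR and in DESeq2 and 1 lower at an unadjusted p below 0.05, with 11 negative values and a median of -0.088. Of 16 ER folding genes 1 rose, P4hb, a protein disulfide isomerase (log2 fold change 0.25, SE 0.072, adjusted p = 0.0345), with a median of 0.052. DESeq2 called neither Fnip1 nor P4hb (adjusted p = 0.0906 and 0.0617). The calls of Fnip1 and Hspbp1 were lost with each of the 6 libraries left out, with adjusted p up to 0.124 and 0.126. Those of P4hb were lost with each but Control 2 left out (up to 0.121), and those of Sgtb without Control 1 (0.0632) or TAF15 OE 2 (0.0691).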

How the data were processed

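Total RNA of hippocampus was extracted with Trizol and made into Illumina TruSeq libraries, per the labels' protocols. The submitters' processing notes name the build GRCm38 and the tools TopHat2, HISAT2 2.1.0, Bowtie2 2.2.3 and CASAVA, with no role for each. Counter, annotation and strand setting are not given in the sources used here. Deposited by the authors were raw counts per gene, FPKM (corrected for gene length and depth) and a comparison table. In that deposited table the authors give a mean normalised signal, a fold change as a ratio, its log2 value, and a p-value with its adjusted form; its 76 chaperone genes include 7 with no adjusted p. The counts in both deposited tables were equal in 100% of cells.

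The tests on these counts were run with edgeR 4.0.16 under R 4.3.3. Genes were filtered by filterByExpr (minimum count 10, minimum total 15), scaled by TMM and tested by a quasi-likelihood F-test over 16758 genes with group as the only term. P-values were adjusted over all of them by Benjamini-Hochberg, and a gene was called at an adjusted p below 0.05. Counts at an unadjusted p below 0.05 have no share of all tested genes beside them and are descriptive only. The biological coefficient of variation was 13.1%. The method was tested on simulated data of 16217 genes. It recovered 33.3% of 60 seeded changes of log2 size 0.5, 65.7% of 67 of size 1 and 94% of 67 of size 2. Of its 141 calls there, 14 were false, a larger share than the threshold of 0.05 aims at. A call can therefore also be false, and those of Dnajc5, Hspa12a and Hspbp1 lie near the threshold. A gene that was not called can therefore still have changed, above all by a small amount. CPM are counts over the TMM-scaled library total; levels of different genes are compared in FPKM only. Each library is 1 mouse, and no pair of libraries agreed within sampling noise (smallest chi-square per degree of freedom 5.07). Motifs were searched in RefSeq promoter windows on GRCm38.p6, and overlapping genes were read from GENCODE M21 on GRCm38.

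Alternatives were other scalings, filters and tools (DESeq2 1.42.0, limma 3.58.1 on counts and on log2(FPKM + 1) or log2(FPKM + 0.1)), a replicate block and left-out libraries. The summed pair Hspa1a and Hspa1b was added after seeing the data. The chaperone genes, the groups of partner and marker genes and the tests were chosen with earlier results of these data known. Named with values were all called genes, the HSP90, HSP60, HSP10 and BAG classes, a list of major members and called partners; others are said to be named after their values were seen.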

Additional observations from a re-analysis of the deposited data

How the results depend on the processing

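The count of chaperone genes called lower, 5, moved with most settings. It was 8 with DESeq2's size factors (11.6%, against 6.72% of all tested genes) and 3 with total counts (4.35%, against 4.27%). Without a filter it was 13 (17.1%, against 5.09%), and in DESeq2 13 (18.8%, against 7.53%). On log2(FPKM + 1) and log2(FPKM + 0.1) it was 2 each (2.94%, against 2.7% and 2.71%). On log2(FPKM + 1) without a filter it was 1 (1.32%, against 0.535%). It was 11 without both Control 1 and TAF15 OE 1 (15.9%, against 5.99%). With single libraries left out it was 1 to 15 (1.45 to 21.7%, against 2.13 to 7.06%). The count called higher, 3, was 0 by limma on FPKM without a filter (against 1.41% of all genes), where 9 had an unadjusted p below 0.05. Under every other setting it was 2 to 4 (2.9 to 5.8%, against 5.1 to 11.4% of all genes). Genes called lower over all, 997, were 1568 without a filter, 441, 443 and 165 on the 3 FPKM scales, and 365 to 1208 with single libraries left out. Genes called higher, 1562, were 436 on FPKM without a filter and 877 to 1293 with single libraries left out. Taf15 was called under all 17 settings. The cause of these moves was not tested.

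The replicate numbers are not stated to pair mice, and same-numbered libraries deviated together with correlations of 0.126, 0.0776 and 0.0871, each the best match of its library. With the number as a block, 12 chaperone genes were lower (17.4%, against 8.28% of all genes) and 3 higher (4.35%, against 11.4%).

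Several values near zero turned sign. Hspa9 was -0.013 with DESeq2's size factors, -0.020 without a filter, -0.021 in DESeq2, and -0.036 to 0.044 with single libraries left out. Wdr61 was 0.025 with total counts, 0.025, 0.029 and 0.025 on the FPKM scales, 0.12 without both Control 1 and TAF15 OE 1, and -0.11 to 0.098 with single libraries left out. Without both, Hspb1 was -0.48, Hsp90b1 -0.0064 and Hspa12b -0.016. With single libraries left out, Bag4 ranged from -0.14 to 0.020, Hspb1 from -0.20 to 0.50, Hsp90b1 from -0.014 to 0.15 and Hspa5 from -0.41 to 0.00012.

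With 3 mice a group, the calls of small size (Dnajc5, Hspa12a, Dnajc16) were lost with some single libraries left out. In each of these genes the groups did not overlap. Hspb6 and Hspb8 were lost only on log2(FPKM + 1) without a filter (adjusted p = 0.0641 and 0.0618).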
